A study of Homo sapiens with 4 samples.

Results

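The 10 genes described here make up a STAT3 axis: the receptor genes IL6ST, IL6R and IL4R, the transcription factor gene STAT3, the feedback inhibitor genes SOCS1, SOCS2 and SOCS3, the kinase genes PIM1 and PIM3, and BCL3. They were taken by name out of 58735 genes in the deposited tables, and they were chosen by their role together with their known FPKM values in the comparison of the 2 groups. Their differences between the groups, with the standard errors, intervals and counts of passes given for them, are therefore a description of these libraries and not a test of the choice. FPKM are reads scaled to library depth and to the length of all annotated exons of a gene together. The 10 genes have 2 to 19 annotated transcripts each, and which of them were in use was not tested. Levels of different genes can thus be compared only roughly. All 10 genes passed the filter on low values (mean FPKM 1 or more across libraries), and each also had a control mean above 1.

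The libraries came from HT8, a human line whose tissue is labelled colon cancer: 2 libraries carry the genotype label control, and 2, of a source named HT8-cas1, the label PPDPF knockdown. PPDPF is named for a role in pancreatic progenitor cells. The labels do not say how the knockdown was made, whether HT8-cas1 is 1 clone, or whether replicates were separate cultures. The errors and p-values therefore cover only the spread between these libraries, and that spread may be technical. PPDPF was not lower where it was labelled as knocked down, with 237 and 266 FPKM in the controls and 281 and 283 FPKM in the others (log2 fold change 0.16, limma adjusted p = 0.0940). It passed the test as higher without control replicate 2 (adjusted p = 0.0233), with voom on whole reads (0.0105) and with a filter at a mean FPKM of 5 (0.0459). The second group is hence called the libraries labelled knockdown.

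Cytokines of the IL6 family bind a receptor subunit of their own and then the shared signalling subunit gp130, the product of IL6ST, whose associated JAK kinases phosphorylate STAT3. Phosphorylated STAT3 dimers enter the nucleus and switch on target genes, among them SOCS3, whose product blocks the receptor and closes a feedback loop, and PIM1, which encodes a growth-promoting serine/threonine kinase. In the gut lining the pathway is known for its part in epithelial repair and in colitis-associated tumours. IL4R encodes the chain that binds IL4 and signals mainly through STAT6.

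Depth was 17069628 to 19479906 reads in genes per library. The libraries of 1 group differed by more than sampling noise (chi-square per gene 2.51 in control and 2.38 in the other group), and all 4 were kept as separate samples. Of 8 epithelial and intestinal markers, all had a mean of at least 1 FPKM, and their sum was 2620 and 2800 FPKM in control and 3160 and 3130 FPKM in the labelled-knockdown libraries. Among 8 leukocyte markers 4 were at 0 in each library, PTPRC, CD3E, CD3D and MS4A1, and the list summed to 1.64 and 1.90 FPKM in control and 1.34 and 1.17 FPKM in the others, most of it CD14. Fibroblast markers summed to 0.377 to 0.723 FPKM and endothelial markers to 0.0456 to 0.185 FPKM, and in each of these lists 3 markers were at 0 throughout. Of 12777 genes tested, 29.9% passed the test (limma-trend, Benjamini-Hochberg adjusted p under 0.05), 16.8% as higher and 13.0% as lower in the libraries labelled knockdown, and the median log2 fold change was 0.0011. The 2152 higher and 1662 lower genes became 1197 and 775 when control replicate 1 was left out, 1345 and 822 for control replicate 2, 1141 and 829 for knockdown replicate 1, and 1160 and 919 for knockdown replicate 2.

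The sequences before the start sites of 4 of the genes are shown as examples of the pattern reported further on. PIM1, IL6ST and IL6R were well above control in the libraries labelled knockdown, and STAT3 was level. The sequences are those of RefSeq for the build GRCh38.p14, written 5′ to 3′ on the strand of the gene. Each stops at the RefSeq start or before the first exon base that GENCODE 29 gives for the gene. Capitals mark GC boxes, the letters GGGCGG on either strand. PIM1 is chr6:37169902-37170151 (plus strand), IL6ST chr5:55994994-55995213 (minus strand), IL6R chr1:154405093-154405192 (plus strand) and STAT3 chr17:42388569-42388692 (minus strand).
PIM1: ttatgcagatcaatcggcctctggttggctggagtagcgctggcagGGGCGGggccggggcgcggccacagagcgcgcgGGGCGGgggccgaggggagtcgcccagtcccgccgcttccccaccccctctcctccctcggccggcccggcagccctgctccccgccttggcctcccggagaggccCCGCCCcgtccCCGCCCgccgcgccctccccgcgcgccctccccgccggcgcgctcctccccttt
IL6ST: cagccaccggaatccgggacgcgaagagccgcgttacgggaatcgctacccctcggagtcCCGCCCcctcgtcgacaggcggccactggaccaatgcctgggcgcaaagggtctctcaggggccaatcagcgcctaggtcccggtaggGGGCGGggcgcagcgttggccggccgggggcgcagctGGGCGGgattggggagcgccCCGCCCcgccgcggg
IL6R: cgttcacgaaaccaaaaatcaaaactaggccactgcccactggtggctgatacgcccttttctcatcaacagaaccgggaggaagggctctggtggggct
STAT3: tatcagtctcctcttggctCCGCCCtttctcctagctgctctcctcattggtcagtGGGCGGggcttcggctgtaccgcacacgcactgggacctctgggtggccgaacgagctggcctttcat

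RefSeq windows were found for 9 of the 10 genes, and SOCS2 was not matched. Over the 250 bases before the RefSeq start, GC boxes were found in 7 of these 9 genes, against 42.64% of 35116 such windows in the RefSeq table. IL6ST, PIM1, IL4R, BCL3 and PIM3 held 4 each, a pair of those in IL4R overlapping by 1 base, SOCS1 held 3 and STAT3 held 2. A STAT site with a 3-base spacer, TTCNNNGAA, was in none of the 9 genes' windows of 300 bases, which also cover the first 50 bases of the transcript, while 7.66% of all windows held one. The form that STAT6 prefers, TTC and GAA with 4 bases between them, was in none of them either, against 6.44% of all windows. Both forms were read on both strands and can overlap each other. With shares this low, their absence from 9 genes tells little, and looser forms of the site were not searched. The 2 windows of SOCS3 held 78360926 to 78361175 and 78359668 to 78359917 before their RefSeq starts. Neither reached the bases just before the GENCODE start of SOCS3, 78360077. The windows of IL4R, BCL3 and PIM3 began inside the GENCODE gene. For these genes, SOCS3 included, the bases just before the GENCODE start were not scanned, so STAT sites and GC boxes there were not tested. The GC boxes counted for IL4R, BCL3 and PIM3 lie inside the GENCODE gene. The windows of the 9 genes were 62.8% to 82.0% GC, where the median over all windows was 58.0%.

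The receptor genes were higher in the libraries labelled knockdown, each without overlap between the groups. Such a lack of overlap, in either direction, was seen for 69.7% of all tested genes. IL6ST (ENSG00000134352, chromosome 5, 55935095 to 55994993 on GRCh38) encodes gp130, and it had 7.64 and 8.0 FPKM in control and 12.9 and 13.0 FPKM in the labelled-knockdown libraries. Both of the latter lay above both controls, and the group means were 7.82 ± 0.252 and 13.0 ± 0.0686 FPKM (SD, n = 2). On the scale of log2(FPKM + 1), which understates the change of low genes, the log2 fold change was 0.66 (SE 0.05, 95% interval 0.55 to 0.78), that is, 1.58-fold.

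IL6R (ENSG00000160712, chromosome 1, 154405193 to 154469450), the IL6-binding chain, was the lowest of the 10 genes in control. It had 1.13 and 1.14 FPKM there, from 128 and 145 reads, and 4.09 and 4.03 FPKM in the labelled-knockdown libraries, from 456 and 441 reads. The libraries of each group almost coincided. The ratio of the mean FPKM was 3.58, and the log2 fold change of FPKM + 1 was 1.25 (SE 0.08), or 2.37-fold. The log2 value became 1.75 with a pseudocount of 0.1 and 1.81 with limma-voom on whole reads. The FPKM of IL6ST was 6.78 and 7.0 times that of IL6R in the controls and 3.15 and 3.23 times in the libraries labelled knockdown. The FPKM of IL6ST thus exceeded that of IL6R in each library, by a smaller factor where the label was knockdown. The receptor proteins were not measured.

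IL4R (ENSG00000077238, chromosome 16, 27313668 to 27364778) had 6.66 and 7.22 FPKM in control and 11.5 and 10.4 FPKM in the labelled-knockdown libraries. The log2 fold change was 0.59 (SE 0.07), or 1.51-fold, and its range over 11 other settings was 0.53 to 0.66. Of the leukocyte markers, the 4 named above were at 0 in each library, and CD14 had 1.57 and 1.86 FPKM in control and 0.860 and 0.907 FPKM in the others, passing the filter only through its level in control. The part of other cell types in the receptor differences was not tested.

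**Figure D1:**
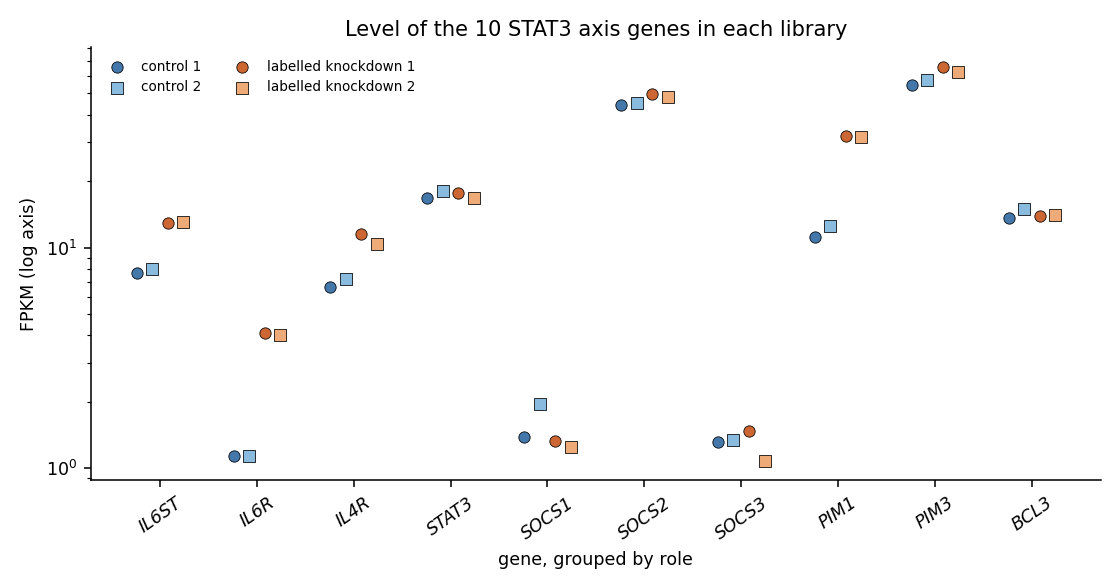
Each point is 1 library, circles replicate 1 and squares replicate 2, on a log axis of FPKM, for the 10 genes in order of role. PIM1, IL6R, IL6ST and IL4R show separate pairs of points, with PIM1 near 12 in control and 32.0 FPKM in the labelled-knockdown libraries, while the 4 points of STAT3 lie between 16.7 and 18.0 FPKM.

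STAT3 itself, which encodes the transcription factor activated downstream of gp130, did not differ by more than the spread between libraries. STAT3 (ENSG00000168610, chromosome 17, 42313324 to 42388568) had 16.7 and 18.0 FPKM in control and 17.7 and 16.8 FPKM in the labelled-knockdown libraries, from 2505 to 3112 reads. The groups overlapped, the log2 fold change was -0.01, and the 95% interval of the fold was 0.904 to 1.09. Its neighbours STAT5A and STAT5B lie beside it on chromosome 17, at 42287547 to 42311943 and 42199168 to 42276707, and encode STATs best known downstream of growth hormone and prolactin. STAT5A rose from 1.84 ± 0.0600 to 3.89 ± 0.0270 FPKM (log2 fold change 0.78, limma adjusted p = 0.00298), whereas STAT5B had a log2 fold change of -0.03 that did not pass. Transcript level says nothing of how much STAT3 protein was phosphorylated, which was not measured.

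Of the SOCS genes, whose proteins end in a box that recruits a ubiquitin ligase, SOCS2 stood far above SOCS1 and SOCS3. That gap was far larger than the difference of any of the 3 between the groups. SOCS1 and SOCS3 had means of 1.67 and 1.33 FPKM in control and 1.29 and 1.28 FPKM in the libraries labelled knockdown. SOCS2 (ENSG00000120833, chromosome 12, 93569814 to 93583487), best known as the brake on growth hormone signalling, had 44.2 and 45.2 FPKM in control and 49.6 and 48.1 FPKM in the labelled-knockdown libraries. The groups did not overlap, but the difference was small, with a log2 fold change of 0.13 (SE 0.03), or 1.09-fold. SOCS2 gave 93.2% to 95.4% of the summed FPKM of the 3 SOCS genes. Its antisense partner SOCS2-AS1 had 5.28 to 5.76 FPKM, and without a stated strand setting reads of the pair cannot be told apart.

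SOCS3 (ENSG00000184557, chromosome 17, 78356778 to 78360077), the main feedback inhibitor of gp130, was near the filter. Its FPKM were 1.31 and 1.34 in control and 1.48 and 1.08 in the libraries labelled knockdown, from 63, 72, 70 and 50 reads. The libraries labelled knockdown lay on either side of the controls, and the log2 fold change was -0.03 with a 95% interval of the fold of 0.764 to 1.25. At 50 reads counting error alone is 14.1% of the value.

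SOCS1 (ENSG00000185338, chromosome 16, 11254405 to 11256200), the inhibitor best known for interferon signalling, had 1.39 and 1.95 FPKM in control and 1.32 and 1.25 FPKM in the labelled-knockdown libraries. Control replicate 2 stood above the other 3 libraries. The groups did not overlap, but the gap between 1.39 and 1.32 FPKM corresponds to 44 and 41 reads, and the 95% interval of the fold was 0.667 to 1.11. SOCS1 lies within the span of RMI2 on the opposite strand, which had 10.8 to 11.6 FPKM, and reads of both cannot be told apart where exons overlap.

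On the scale of log2(FPKM + 1), PIM1 showed the largest difference of the 10 genes, while the ratio of mean FPKM was larger for IL6R (3.58) than for PIM1 (2.71), as were the log2 fold changes with a pseudocount of 0.1 (1.75 and 1.43) and with voom (1.81 and 1.41). PIM1 (ENSG00000137193, chromosome 6, 37170203 to 37175426), a STAT target that encodes a kinase active without further phosphorylation, had 11.2 and 12.5 FPKM in control and 32.1 and 31.9 FPKM in the labelled-knockdown libraries. Reads numbered 585, 729, 1648 and 1610. The means were 11.8 ± 0.909 and 32.0 ± 0.128 FPKM, the log2 fold change was 1.37 (SE 0.06, 95% interval 1.22 to 1.51) and the fold 2.58. In control its level was below those of BCL3 and STAT3, and in the libraries labelled knockdown above both.

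PIM3 (ENSG00000198355, chromosome 22, 49960513 to 49964080), which encodes a close relative of PIM1, had the highest FPKM of the 10 genes. It had 54.7 and 57.5 FPKM in control and 65.9 and 62.8 FPKM in the labelled-knockdown libraries, a log2 fold change of 0.19 (SE 0.04). PIM2, the other family member, had means of 7.28 and 7.04 FPKM and did not pass the test. PIM1 thus made up 15.3% and 16.1% of the summed PIM FPKM in control and 30.6% and 31.3% in the libraries labelled knockdown, while PIM3 went from 75.1% and 74.1% to 62.9% and 61.6%. The sum was 72.8 and 77.6 FPKM in control and 105 and 102 FPKM in the others.

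**Figure D2:**
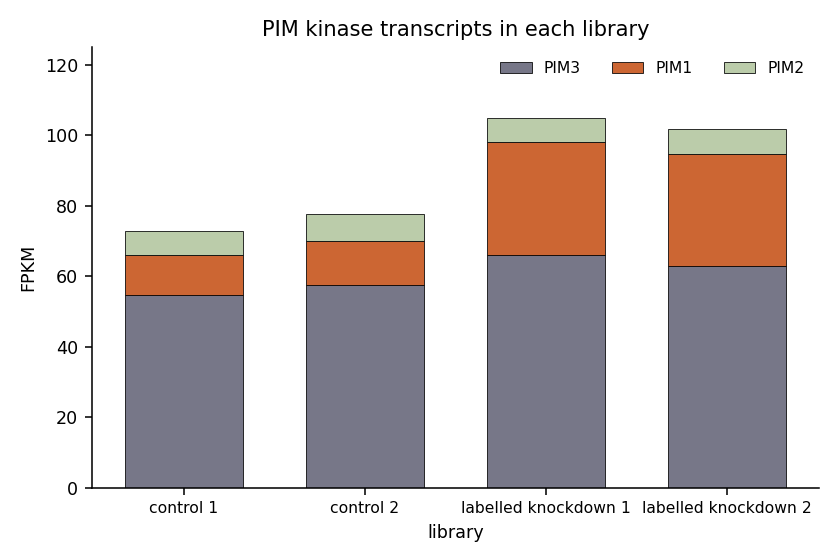
Stacked bars give the FPKM of PIM3, PIM1 and PIM2 in each of the 4 libraries, from an axis starting at 0. The PIM1 segment is 11.2 and 12.5 FPKM high in the controls and 32.1 and 31.9 FPKM in the labelled-knockdown libraries.

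BCL3 (ENSG00000069399, chromosome 19, 44747705 to 44760044), an atypical IkB protein that works in the nucleus with NF-kB p50 and p52 homodimers and is induced by STAT3 in several cell types, had 13.6 and 14.9 FPKM in control and 13.9 and 14.1 FPKM in the labelled-knockdown libraries. The latter lay between the controls, and the 95% interval of the fold was 0.896 to 1.08.

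Across the 10 genes, 6 passed the test over all genes as higher, IL6ST, IL6R, IL4R, PIM1, PIM3 and SOCS2, and 4 did not pass, where 16.8% of all tested genes were higher. Since the genes were picked with this comparison known, the count is only a description. IL6ST, IL4R and PIM1 passed in each of 11 other settings and IL6R in each of 10, PIM3 in 5 of 11 and SOCS2 in 3 of 11. PIM3 and SOCS2 did not pass when any 1 of the 4 libraries was left out, with log2 fold changes of 0.16 to 0.23 and 0.10 to 0.15. The groups did not overlap for 7 of the 10 genes, where the share was 69.7% over all tested genes. The median log2 fold change of the 10 genes was 0.16, and that of all tested genes was 0.0011.

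**Figure D3:**
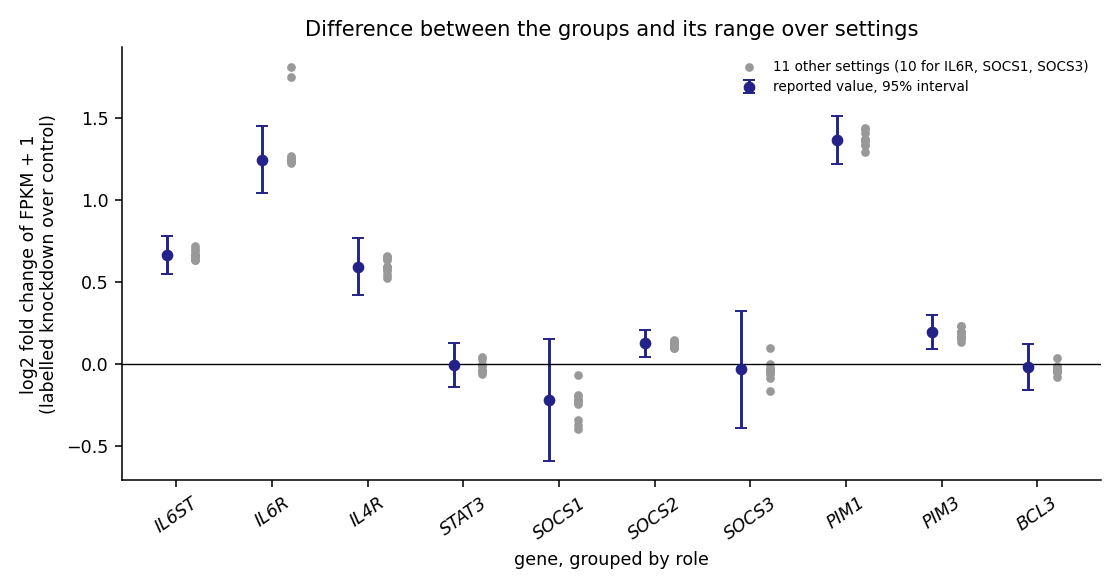
Dark points give the log2 fold change of FPKM + 1, labelled knockdown over control, with its 95% interval, and grey points the values under other settings, for the 10 genes in order of role. PIM1 at 1.37 and IL6R at 1.25 stand highest, IL6ST and IL4R lie near 0.66 and 0.59, and the intervals of STAT3, SOCS1, SOCS3 and BCL3 span 0.

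In control the order of FPKM was PIM3, SOCS2, STAT3, BCL3, PIM1, IL6ST, IL4R, SOCS1, SOCS3 and IL6R. There the FPKM ranges of genes next to each other in this order did not overlap. In the libraries labelled knockdown PIM1 stood next after PIM3 and SOCS2, and IL6R had passed SOCS1 and SOCS3, whose ranges overlapped there (1.25 to 1.32 and 1.08 to 1.48 FPKM). The 20 nearest tested genes, 10 on each side, had a median log2 fold change of 0.05 around PIM1, -0.01 around IL6R, 0.02 around IL6ST and -0.05 around IL4R, all near 0. Around SOCS2 the median was 0.13, equal to the value of SOCS2 itself, with 8 of 20 neighbours higher and 1 lower. Around BCL3 it was -0.14, with 2 higher and 7 lower. Over all tested genes 16.8% were higher and 13.0% lower.

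SLC22A18, DPP4 and ERVH48-1 had the profiles closest to that of PIM1, the gene with the largest log2 fold change of FPKM + 1, by Euclidean distance of centred log2(FPKM + 1) over the 4 libraries (0.0690, 0.110 and 0.120, among 12776 genes). SLC22A18, a membrane transporter gene, had 8.72, 9.48, 23.8 and 24.1 FPKM in control replicates 1 and 2 and knockdown replicates 1 and 2. DPP4, a surface peptidase gene, had 1.19, 1.33, 4.36 and 4.72 FPKM in the same order. With 4 libraries such closeness mainly says that the difference between the groups was of similar size.

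The other genes of the pathway were taken from 9 lists chosen by textbook role, and 72 of 118 listed genes were expressed highly enough to test. Of these 22 rose and 7 fell, which is set beside 16.8% higher and 13.0% lower over all tested genes, and their median log2 fold change was 0.05. The 22 include EBI3 and CEBPD, which passed the filter only through the group where they were high. Without control replicate 1, control replicate 2, knockdown replicate 1 or knockdown replicate 2 the number that rose was 13, 13, 11 and 14.

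**Figure D4:**
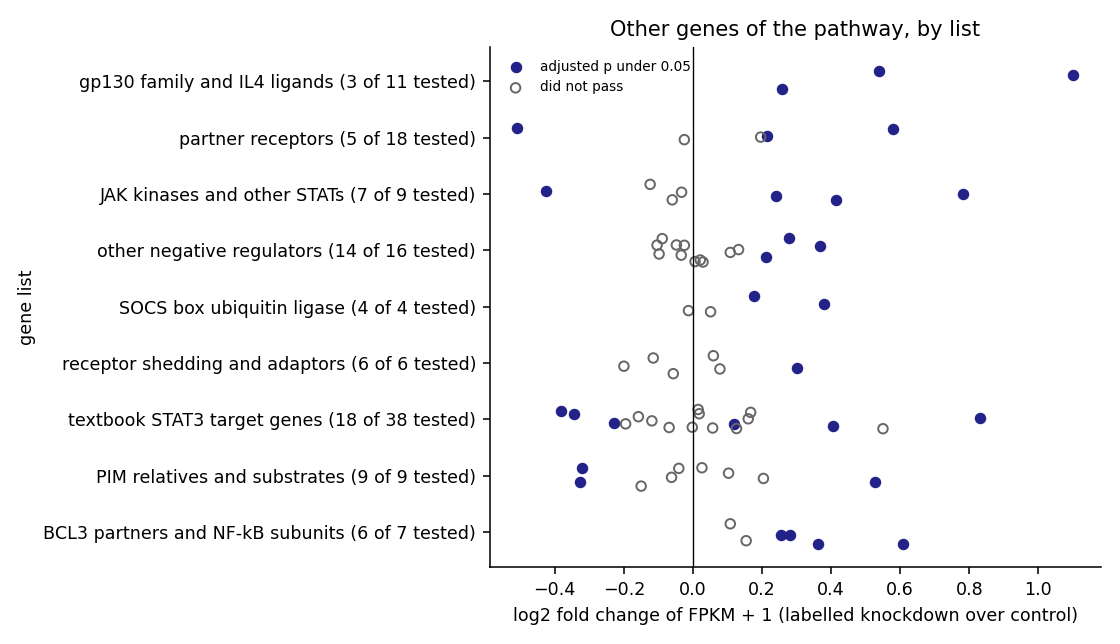
Each point is 1 tested gene of the 9 lists, at its log2 fold change of FPKM + 1, labelled knockdown over control, filled where the limma adjusted p was under 0.05. The 3 tested ligands, of 11 listed, and 6 tested NF-kB genes all lie right of 0, and the median of all tested genes was 0.0011. EBI3, a ligand gene, passed the filter only through the libraries labelled knockdown. JAK kinases and STATs spread from -0.43 to 0.78.

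Among ligands, IL6 itself was nearly absent, with 1 read in control replicate 1 and none in the other libraries, and IL27 and IL13 were at 0 throughout. Of 11 ligand genes 3 could be tested, 1 of them, EBI3, only through its level in the labelled-knockdown libraries. LIF, a gp130 cytokine that keeps mouse embryonic stem cells undifferentiated, rose from 13.1 ± 0.0214 to 15.9 ± 0.114 FPKM (log2 fold change 0.26, limma adjusted p = 0.00916). The call of LIF was lost without knockdown replicate 1, where the log2 fold change was 0.25. CLCF1, which signals through the CNTF receptor, rose from 3.8 ± 0.201 to 5.97 ± 0.263 FPKM (log2 fold change 0.54, limma adjusted p = 0.00543). EBI3, the subunit that IL27 and IL35 share, rose from 0.675 ± 0.391 to 2.55 ± 0.226 FPKM (log2 fold change 1.10, limma adjusted p = 0.0141), a direction that the filter favours. Its call was lost without knockdown replicate 1 or 2 (0.0729 and 0.0546) and with no filter (0.0775).

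The partner chains of gp130 ranged from almost no reads to a moderate level. LIFR, the chain that LIF needs, had 4, 5, 0 and 0 reads in control replicates 1 and 2 and knockdown replicates 1 and 2, OSMR had 1, 0, 5 and 3, and CNTFR had 4 in control replicate 1 and none elsewhere. IL27RA was the best expressed of them, with 12.8 and 11 FPKM in control and 13.1 and 14.4 FPKM in the labelled-knockdown libraries, and did not pass the test (log2 fold change 0.20). IL11RA had 0.643 to 1.10 FPKM and lay under the filter. Of 5 tested receptor genes in the list, 2 rose and 1 fell, beside 16.8% higher and 13.0% lower over all tested genes. IL20RA, a chain of the IL20 receptor, fell from 7.94 ± 0.423 to 5.28 ± 0.250 FPKM (log2 fold change -0.51, limma adjusted p = 0.00552).

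IL22RA1, the IL22 receptor chain of epithelia, rose from 7.85 ± 0.169 to 9.26 ± 0.401 FPKM (limma adjusted p = 0.0360). That call was lost without any 1 library (0.104 and 0.137 without control replicates 1 and 2, 0.140 and 0.0676 without knockdown replicates 1 and 2), under both other scalings and with voom. IL2RG, the common gamma chain that pairs with the IL4R product, rose from 1.09 ± 0.347 to 2.11 ± 0.191 FPKM (limma adjusted p = 0.0450), a call lost without control replicate 2 (0.118) and without knockdown replicate 1 or 2 (0.110 and 0.164), with no filter (0.161) and with a pseudocount of 0.1 (0.0527). IL13RA1, the other partner of the IL4R product, had means of 16.2 and 16.0 FPKM and did not pass.

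**Figure D5:**
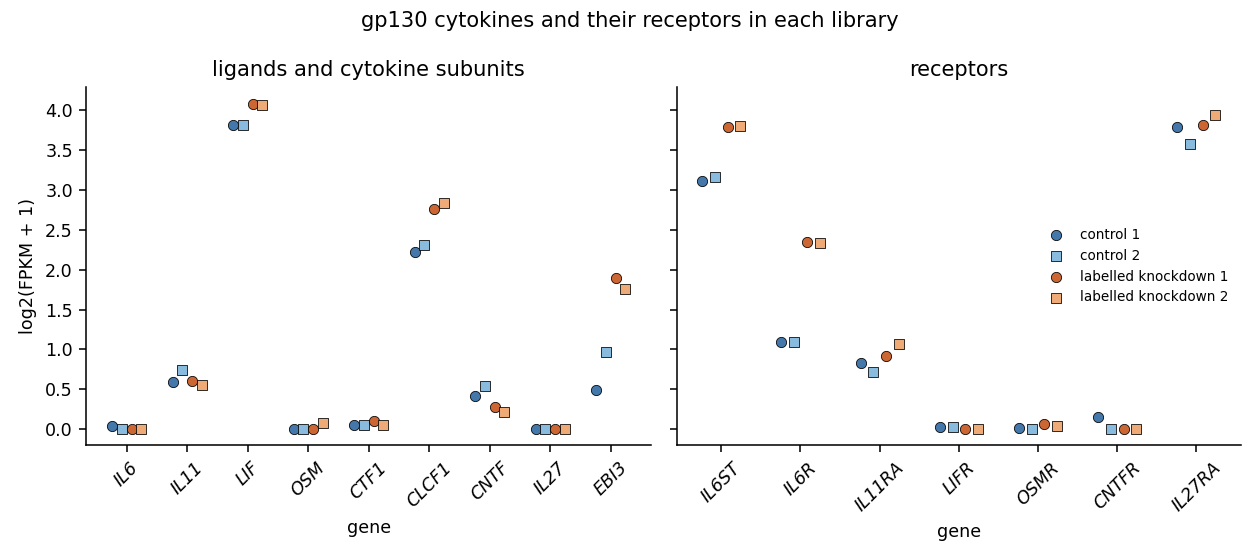
Points are single libraries on the scale of log2(FPKM + 1), ligands and cytokine subunits on the left and receptor genes on the right. LIF, CLCF1, IL6ST and IL27RA stand well above 0 in each library, whereas IL6, LIFR, OSMR and CNTFR lie at or near 0, and IL6R separates the groups with 1.13 and 1.14 against 4.09 and 4.03 FPKM.

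The kinases and other STATs moved in both directions, with 3 higher and 1 lower of 7 tested, beside 16.8% and 13.0% of all tested genes. JAK1, the kinase that gp130 depends on most, rose from 15.9 ± 0.281 to 21.5 ± 0.302 FPKM (log2 fold change 0.41, limma adjusted p = 0.00275). STAT2, part of the interferon-activated transcription complex, fell from 12.4 ± 0.725 to 8.96 ± 0.680 FPKM (limma adjusted p = 0.0123), a call lost without control replicate 2 (0.0569) and with no filter (0.0618). STAT6, the main STAT downstream of IL4R, rose from 23.2 ± 0.227 to 27.6 ± 0.216 FPKM (log2 fold change 0.24, limma adjusted p = 0.00830), a call lost without knockdown replicate 1 (0.0506). JAK2 and TYK2 did not pass, with log2 fold changes of -0.12 and -0.06.

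Of 14 tested genes in the list of other negative regulators, 3 rose and 11 did not pass, with a median log2 fold change of 0.01. Over all tested genes the share that was higher was 16.8%. PTPN1, a phosphatase of JAK2 and TYK2, rose from 19.2 ± 0.591 to 23.5 ± 0.217 FPKM (limma adjusted p = 0.00829). PTPN6, the phosphatase SHP1, rose from 4.66 ± 0.0025 to 6.32 ± 0.475 FPKM (limma adjusted p = 0.0160), a call lost without control replicate 1 or 2 (0.0714 and 0.0683), without knockdown replicate 2 (0.0642) and with no filter. SOCS6 rose 1.16-fold, a call lost when any 1 library was left out (limma adjusted p = 0.120 and 0.113 without control replicates 1 and 2, and 0.129 and 0.0755 without knockdown replicates 1 and 2). CISH, the SOCS relative induced by STAT5, had a log2 fold change of 0.01.

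Of the SOCS box ubiquitin ligase, ELOB rose from 150.0 ± 3.99 to 196 ± 3.11 FPKM (limma adjusted p = 0.00243). ELOC rose 1.13-fold (limma adjusted p = 0.0497), lost without control replicate 1 or 2 (0.0854 and 0.182), without knockdown replicate 1 or 2 (0.176 and 0.120) and under 5 further settings. The scaffold CUL5 did not pass, with a log2 fold change of 0.05. Among 6 shedding and adaptor genes, SHC1, which links receptors to RAS, rose 1.23-fold (limma adjusted p = 0.00430). GRB2 and GAB1 did not pass (0.117 and 0.153 by the same test), though with voom GAB1 passed as lower (log2 fold change -0.31, adjusted p = 0.0101). Nor did ADAM10 and ADAM17, the sheddases of the IL6R protein, pass.

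Of 18 textbook targets of STAT3 tested among 38 listed, 3 rose, 3 fell and 12 did not pass, and the median log2 fold change was 0.02. These counts are near the shares over all tested genes, 16.8% higher and 13.0% lower, and so show nothing particular to the list. MYC fell from 78.5 ± 1.71 to 61.6 ± 1.68 FPKM (log2 fold change -0.35, limma adjusted p = 0.00368), and LCN2, the iron-siderophore trap lipocalin 2, from 16.6 ± 0.352 to 12.5 ± 0.128 FPKM (log2 fold change -0.38, limma adjusted p = 0.00381). CEBPD, an acute-phase transcription factor, rose from 0.718 ± 0.240 to 2.06 ± 0.424 FPKM (limma adjusted p = 0.0228), a gene that passed the filter only through the libraries labelled knockdown. Its call was lost without control replicate 1 (0.0794), without knockdown replicate 1 or 2 (0.0502 and 0.102) and with no filter (0.0999). The other calls of this list were smaller or less stable, each lost in several leave-one-out fits. BIRC5, which encodes survivin, fell from 28.3 ± 1.53 to 24 ± 0.886 FPKM (limma adjusted p = 0.0309), lost without control replicate 1 (0.113) and without knockdown replicate 1 or 2 (0.123 and 0.0666). FOS rose from 1.54 ± 0.0431 to 2.37 ± 0.208 FPKM, and MCL1, a survival gene, from 63.4 ± 1.30 to 69.0 ± 0.181 FPKM (limma adjusted p = 0.0366 and 0.0437). Both were lost when any 1 library was left out, with FOS at 0.124 and 0.103 without control replicates 1 and 2 and at 0.0816 and 0.149 without knockdown replicates 1 and 2. For MCL1 the 4 values, in the same order, were 0.0866, 0.155, 0.141 and 0.152.

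The acute-phase genes FGB, FGG, SERPINA3, CRP and LBP were at 0 in each library. SAA1, an acute-phase gene under the filter, had 1 read in each control and 9 and 15 reads in the libraries labelled knockdown, and SAA2 had none in control and 1 and 3 reads in the others. JUNB, ICAM1, TIMP1 and BCL2L1, all well expressed, did not pass.

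Of 9 genes of PIM relatives and substrates, 1 rose and 2 fell, beside 16.8% higher and 13.0% lower over all tested genes. CDKN1A, the cell cycle inhibitor p21, rose from 320.0 ± 9.63 to 462 ± 32.7 FPKM (log2 fold change 0.53, limma adjusted p = 0.00381). CDKN1B, the inhibitor p27, fell from 69.4 ± 2.83 to 55.2 ± 1.48 FPKM (log2 fold change -0.33, limma adjusted p = 0.00634), and CDC25A, a cell cycle phosphatase, from 13.4 ± 0.140 to 10.5 ± 0.380 FPKM (log2 fold change -0.32, limma adjusted p = 0.00818). Whether these differences relate to PIM1 was not tested.

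Of 6 tested genes in the list of BCL3 partners and NF-kB subunits, 4 rose and 2 did not pass, at a median log2 fold change of 0.27. Over all tested genes 16.8% were higher. NFKB2, the precursor of p52, rose from 20.6 ± 0.101 to 26.7 ± 0.716 FPKM (log2 fold change 0.36, limma adjusted p = 0.00369), and RELB, its usual partner, from 5.28 ± 0.114 to 8.58 ± 0.666 FPKM (log2 fold change 0.61, limma adjusted p = 0.00406). NFKBIA, the inhibitor that NF-kB induces, rose 1.21-fold (limma adjusted p = 0.0185), lost without control replicate 1 or 2 (0.0835 and 0.0608), without knockdown replicate 1 (0.0606) and with no filter (0.0765). RELA, the p65 subunit, rose 1.19-fold (limma adjusted p = 0.0191), a call lost without control replicate 1 or 2 (0.0730 and 0.0809), without knockdown replicate 2 (0.0721) and with no filter (0.0678). NFKB1, the precursor of p50, did not pass, with a log2 fold change of 0.11.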

How the data were processed

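The authors deposited FPKM per gene, in 1 table per library, per the file headers. HISAT2 2.0.5 and hg18 are named in the submitters' processing notes, with the counting tool, annotation and strand setting not given in the sources used here. All 58735 gene IDs matched GENCODE 29, so names and coordinates are those of GRCh38. FPKM times union exon length gave whole reads for 100% of values above 0, within 0.01 of a read, so the depth of each gene is known. The 12777 genes whose FPKM averaged 1 or more were fitted with limma-trend (limma 3.58.1, R 4.3.3) on the scale log2(FPKM + 1), with the group as the only term and 2 residual degrees of freedom. P-values are two-sided and Benjamini-Hochberg adjusted over all tested genes, with a threshold of 0.05. On simulated data, 40 of 403 calls of the fit were false, more than the threshold allows, and 10.7% of 1.25-fold changes were recovered. The simulation gave all genes a common dispersion and changed far fewer genes than were called here. Its rates therefore may not hold for these libraries. Named were the 10 genes, PPDPF, up to 3 genes with the smallest p per list, the 3 profiles nearest to PIM1, and further genes that were chosen after their values were seen. The genes and lists were chosen with earlier results of these data known, and some genes are not reported here. Alternatives were other scalings, filters and pseudocount, the replicate number as a block, voom on whole reads, and each library left out. Figures used matplotlib 3.10.9.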

Additional observations from a re-analysis of the deposited data

How the results depend on the processing

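The log2 fold changes of PIM1, IL6R, IL6ST, IL4R, PIM3 and SOCS2 stayed above 0 and that of SOCS1 below 0 under every alternative run for them, while STAT3, SOCS3 and BCL3 took either sign (-0.06 to 0.04, -0.16 to 0.10 and -0.08 to 0.04). With no filter on low values, 1134 genes were higher and 734 lower over all genes, and 11 pathway genes were higher. This setting tests more genes. With voom on recovered reads, 2709 genes and 12 pathway genes were lower, and the cause was not tested. Leaving out 1 library gave 1141 to 1345 higher and 775 to 919 lower genes, 11 to 14 higher and 6 to 7 lower pathway genes, and 4 of the 10 genes higher, from fewer samples. With the replicate number as a block, 1899 genes were higher and 1405 lower, 17 and 6 of the pathway genes, and 5 of the 10 genes were higher. The block ended the calls of IL2RG, SOCS6, BIRC5, FOS, MCL1 and ELOC (limma adjusted p 0.0536 to 0.0689). No filter also ended those of SOCS6, BIRC5, FOS and MCL1 (limma adjusted p 0.0780 to 0.131), and both other scalings that of MCL1 (0.0996 and 0.131). Same-numbered libraries did not deviate together (r = -0.00206 across genes), so the numbers are not taken as pairs. Among the 10 genes SOCS1 and SOCS3 had the fewest reads, 38 to 72 per library.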
